A study of Homo sapiens with 12 samples.

Results

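The Polo-like and Aurora kinases with their partners were followed in the cytoplasmic RNA of U2OS cells, a human osteosarcoma cell line, after knock-down of 3 factors of mRNA export. The 10 genes are the kinases PLK1, PLK2, PLK3, PLK4, AURKA and AURKB and the partners KIZ, BORA, TPX2 and INCENP, chosen by name, and all array probes whose accession maps to one of them in RefSeq were taken. This gave 11 probes for the 10 genes, of 34127 probes for 27522 gene names on the array. Cells received 20 nM of a control siRNA or of an siRNA against DBP5, GLE1 or IPPK by lipofection and were cultured for 48 h according to the methods, which list more than 1 siRNA for control, GLE1 and IPPK, and the labels do not say which was used. Their cytoplasm was isolated after lysis with NP40, and its RNA, labelled with Cy3, was hybridised to 12 one-colour Agilent arrays on 3 slides, every slide with 1 array per siRNA. DBP5 is an RNA helicase at the nuclear pore, GLE1 is its activator, and IPPK makes inositol hexakisphosphate, the small molecule that helps GLE1 to act. The methods speak of independent array experiments, but not of separate cultures for each array, so p-values measure the spread between these arrays, part of which may be technical.

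Polo-like and Aurora kinases are protein kinases best known from cell division. PLK1 and AURKA drive entry into mitosis and the building of the spindle poles, AURKB corrects wrong attachments of chromosomes and acts in cytokinesis, and PLK4 sets the number of centrioles. PLK2 and PLK3 are instead known as early response genes, induced by growth signals, DNA damage and other stress, and the mitotic kinases are made mostly in late S and G2 phase.

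The siRNA targets were checked first, as log2 normalized intensity on each array. DBP5 is listed as DDX19B, which lay at 10.23, 10.15 and 10.15 on the control arrays and at 6.25, 6.21 and 6.2 after DBP5 siRNA. GLE1 lay at 8.29, 8.32 and 8.26 in control and at 5.4, 4.85 and 4.72 after GLE1 siRNA, and IPPK at 9.32, 9.43 and 9.47 in control and at 6.94, 6.95 and 7.05 after IPPK siRNA. Each target was thus far below control on all 3 arrays of its own siRNA. The siRNAs also lowered more than their own target among these transcripts. DDX19A, the close paralog of DDX19B, was at 0.0537 ± 0.00258 of control after DBP5 siRNA and DDX19B at 0.49 ± 0.0237 after GLE1 siRNA (SD, n = 3; limma adjusted p = 2.04e-11 and 3.6e-08). IPPK was at 0.42 ± 0.0142 of control after DBP5 siRNA (SD, n = 3 arrays; limma adjusted p = 7.9e-08), and DDX19A at 0.301 ± 0.00413 of control after IPPK siRNA (SD, n = 3; limma adjusted p = 2.09e-09).

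The line was checked against its markers. Of 6 genes of mesenchymal and bone-forming cells, VIM, SPARC, COL1A1, RUNX2 and TWIST1 were well above background on all 12 arrays and COL1A2 on 5, which were 3 control and 2 GLE1 siRNA arrays. Group means in control and after DBP5, GLE1 and IPPK siRNA were 12.58, 12.2, 12.61 and 10.59 for COL1A1 and 7.75, 7.79, 7.83 and 7.04 for RUNX2. Those of VIM, SPARC and TWIST1 lay closer together. Among 7 markers of other lineages, EPCAM, PTPRC and CDH5 were also well above background on 12 arrays, CD3E on 11, CDH1 on 8, PECAM1 on 4 and KRT5 on 0. The log2 of the summed intensity of these 7 was 9.92, 10.07 and 9.81 on the control arrays, 9.57, 9.55 and 9.34 after DBP5 siRNA, 9.62, 9.88 and 9.84 after GLE1 siRNA and 9.07, 9.54 and 9.47 after IPPK siRNA. CDH1 was well above background on 0 control arrays, 3 DBP5, 3 GLE1 and 2 IPPK siRNA arrays, with group means of 3.48, 4.42, 6.78 and 4.78, while the means of EPCAM, also epithelial, were 9.49, 8.88, 9.04 and 8.57. The part of these transcripts in the results was not tested.

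All 10 members were well above background on all 12 arrays, so none was lost to the filter on dim probes. After GLE1 siRNA, 7 of the 10 were lower and 2 higher than control at a limma adjusted p of 0.05, while 31.5% of all genes tested were lower and 30.6% higher. After DBP5 siRNA, 6 were lower and 3 higher, beside 27.5% and 26.7% of all genes, but the methods' t-test, paired by replicate and adjusted, called only 5 members. After IPPK siRNA, 6 were lower and 3 higher, beside 28% and 27.3% of all genes. The median log2 difference of the 10 members was -1.22 after GLE1, -0.25 after DBP5 and -0.29 after IPPK siRNA, and that of all 20821 genes tested was 0.01, -0.02 and -0.03. These 3 comparisons share the control arrays.

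**Figure D1:**
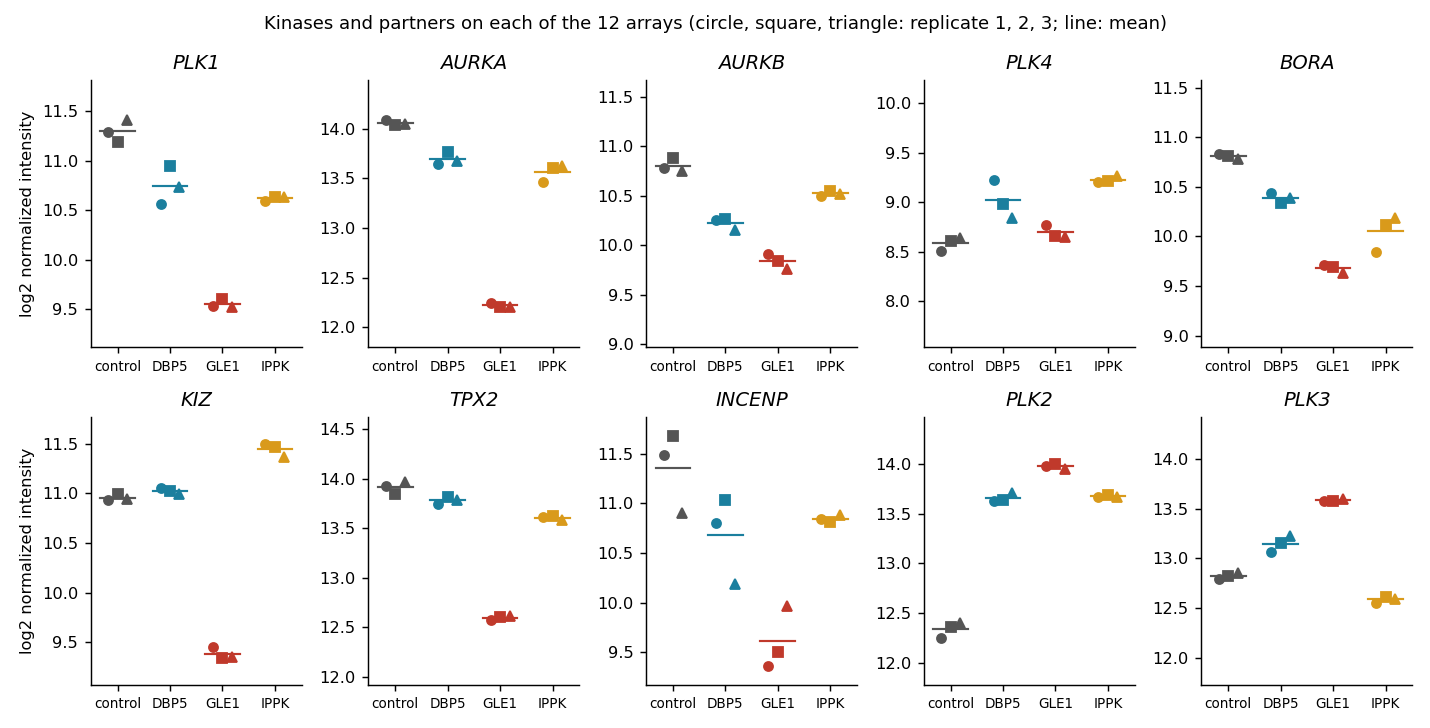
Log2 normalized intensity (vertical axis, a span of 2.7 in every panel) of the 10 genes on the 12 arrays, by siRNA, with replicates 1, 2 and 3 as circle, square and triangle and the group mean as a line. PLK1, AURKA and TPX2 step down to the GLE1 siRNA arrays, PLK2 steps up in every knock-down, and INCENP spreads widely within control, DBP5 and GLE1 siRNA.

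Promoter sequence is shown for the 5 members with a single start in the table of RefSeq promoters (build GRCh38.p14). The table held 12 windows for 8 of the 10 members, not for AURKA and TPX2. The 250 bases before the start were searched on both strands for TTTGAA, the letters of the cell cycle genes homology region, the related motif TTTAAA, the CCAAT box, the cAMP response element TGACGTCA and the AP-1 motif TGANTCA. No searched motif contains another. Capitals mark every match, on either strand, so that ATTGG and TTCAAA are CCAAT and TTTGAA read from the other strand.
PLK1, chr16:23678639-23678888, plus strand: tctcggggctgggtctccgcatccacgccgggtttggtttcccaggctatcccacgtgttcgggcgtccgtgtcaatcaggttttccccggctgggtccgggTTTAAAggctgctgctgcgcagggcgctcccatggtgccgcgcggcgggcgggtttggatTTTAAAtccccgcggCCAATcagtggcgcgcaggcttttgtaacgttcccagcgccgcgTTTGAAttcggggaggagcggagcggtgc
INCENP, chr11:62123761-62124010, plus strand: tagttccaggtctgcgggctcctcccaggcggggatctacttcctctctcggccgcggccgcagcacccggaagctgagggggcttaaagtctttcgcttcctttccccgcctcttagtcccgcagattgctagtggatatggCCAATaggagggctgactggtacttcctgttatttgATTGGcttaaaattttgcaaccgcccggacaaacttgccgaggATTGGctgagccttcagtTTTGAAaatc
BORA, chr13:72727673-72727922, plus strand: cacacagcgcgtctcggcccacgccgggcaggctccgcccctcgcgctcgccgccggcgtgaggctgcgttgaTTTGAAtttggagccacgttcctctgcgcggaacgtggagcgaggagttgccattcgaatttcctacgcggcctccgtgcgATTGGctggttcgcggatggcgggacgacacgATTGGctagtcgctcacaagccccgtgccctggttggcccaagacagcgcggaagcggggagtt
PLK2, chr5:58460087-58460336, minus strand: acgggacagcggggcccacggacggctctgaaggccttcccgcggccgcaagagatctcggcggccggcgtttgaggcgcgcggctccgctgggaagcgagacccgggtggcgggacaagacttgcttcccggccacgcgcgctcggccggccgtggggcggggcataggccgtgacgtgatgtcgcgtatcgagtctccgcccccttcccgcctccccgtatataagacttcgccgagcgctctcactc
PLK3, chr1:44800127-44800376, plus strand: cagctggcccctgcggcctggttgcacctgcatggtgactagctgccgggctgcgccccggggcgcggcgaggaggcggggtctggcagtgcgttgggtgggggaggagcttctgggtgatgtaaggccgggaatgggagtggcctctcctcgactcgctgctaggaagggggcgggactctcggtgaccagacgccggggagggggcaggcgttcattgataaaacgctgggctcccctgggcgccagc
In PLK1, TTTGAA began 29 bases before the start and CCAAT 73 bases before it, with TTTAAA at 148 and 88 bases. INCENP held TTTGAA at 10 bases and 3 copies of CCAAT, on either strand, the nearest at 71 and 28 bases, and BORA held TTTGAA at 177 bases and 2 copies of CCAAT. The windows of PLK2 and PLK3 held none of the 5 motifs, and the same was true of both windows of KIZ and 2 of the 3 windows of PLK4. No window of PLK4 or AURKB held TTTGAA, while CCAAT was in both windows of AURKB and in 1 window of PLK4. Over all 35116 windows of this length in the table, 13.3% held TTTGAA, 11.3% TTTAAA, 32% CCAAT, 1.65% TGACGTCA and 6.57% TGANTCA. These matches describe letters and not binding.

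PLK1, the kinase that triggers mitotic entry and spindle assembly, lay at 11.29, 11.19 and 11.41 on the control arrays. It was at 10.56, 10.94 and 10.73 after DBP5 siRNA, 9.53, 9.6 and 9.52 after GLE1 siRNA and 10.59, 10.63 and 10.63 after IPPK siRNA. Every knock-down array was below every control array, and the GLE1 siRNA arrays were below all others. The log2 difference from control was -1.75 after GLE1 siRNA (confidence interval -1.95 to -1.55, limma adjusted p = 4.94e-08), -0.56 after DBP5 siRNA (-0.76 to -0.35) and -0.68 after IPPK siRNA (-0.88 to -0.48). The fall after DBP5 siRNA was -0.73, -0.25 and -0.68 within slides 1, 2 and 3, and its call depended on the test used. The fall after GLE1 siRNA exceeded that after DBP5 siRNA by 1.19 on the log2 scale and that after IPPK siRNA by 1.07 (limma adjusted p = 1.42e-06 and 2.56e-06), whereas DBP5 and IPPK siRNA were not told apart (interval of the difference -0.08 to 0.33). The second probe of PLK1 lay at 8.63, 8.46 and 8.64 in control and at 6.86, 7.1 and 6.97 after GLE1 siRNA. Its log2 differences from control were -0.56, -1.6 and -0.73 after DBP5, GLE1 and IPPK siRNA, in a fit across all probes, so both probes of PLK1 moved the same way. In bulk RNA, fewer cells in the phase that makes a transcript and less of it per cell cannot be told apart, here and below.

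AURKA, the Aurora kinase of the spindle poles, lay at 14.09, 14.04 and 14.05 in control cells. Its values were 13.65, 13.77 and 13.68 after DBP5 siRNA, 12.24, 12.2 and 12.2 after GLE1 siRNA and 13.46, 13.6 and 13.63 after IPPK siRNA. No knock-down array reached the control range. After GLE1 siRNA the level was 0.278 ± 0.00405 of control (SD, n = 3 arrays; limma adjusted p = 1.44e-09), after DBP5 siRNA 0.778 ± 0.0351 and after IPPK siRNA 0.708 ± 0.0432. The call after DBP5 siRNA depended on the test used. Only 1.85% of all genes tested had a lower log2 difference after GLE1 siRNA than AURKA. The values after DBP5 and IPPK siRNA did not overlap, but their difference of 0.14 on the log2 scale was not called (limma adjusted p = 0.0665), and was called with quantile normalization and with the values processed by the authors (limma adjusted p = 0.0313 and 0.0464).

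AURKB, the kinase of the chromosomal passenger complex, was at 10.78, 10.88 and 10.75 in control. It was at 10.26, 10.27 and 10.15 after DBP5 siRNA, 9.91, 9.84 and 9.76 after GLE1 siRNA and 10.5, 10.55 and 10.52 after IPPK siRNA. The 4 groups did not overlap and each pair of neighbours in the order control, IPPK, DBP5 and GLE1 siRNA differed in limma. The ratio to control was 0.824 ± 0.0144, 0.67 ± 0.0306 and 0.511 ± 0.0253 in that order (SD, n = 3 arrays). AURKB thus fell less after GLE1 siRNA than AURKA did, by their log2 differences of -0.97 (confidence interval -1.1 to -0.84) and -1.85 (-1.97 to -1.72), a difference between genes that was not tested.

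PLK4, the kinase that starts centriole duplication, went another way from the other mitotic kinases. It lay at 8.51, 8.61 and 8.64 in control, 9.22, 8.98 and 8.84 after DBP5 siRNA, 8.77, 8.66 and 8.65 after GLE1 siRNA and 9.2, 9.21 and 9.26 after IPPK siRNA. The knock-down arrays were all above the control arrays, the GLE1 siRNA arrays by as little as 0.01. PLK4 was higher than control after DBP5 siRNA by 0.43 and after IPPK siRNA by 0.64 on the log2 scale (limma adjusted p = 0.00156 and 1e-04). The rise after DBP5 siRNA was 0.71, 0.38 and 0.21 within slides 1, 2 and 3, and its call depended on the test used. The difference of 0.11 after GLE1 siRNA was not called (interval -0.08 to 0.3, limma adjusted p = 0.295). The level after GLE1 siRNA was also below that after DBP5 and IPPK siRNA (limma adjusted p = 0.00928 and 0.000343), and the first of these calls depended on the test used.

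**Figure D2:**
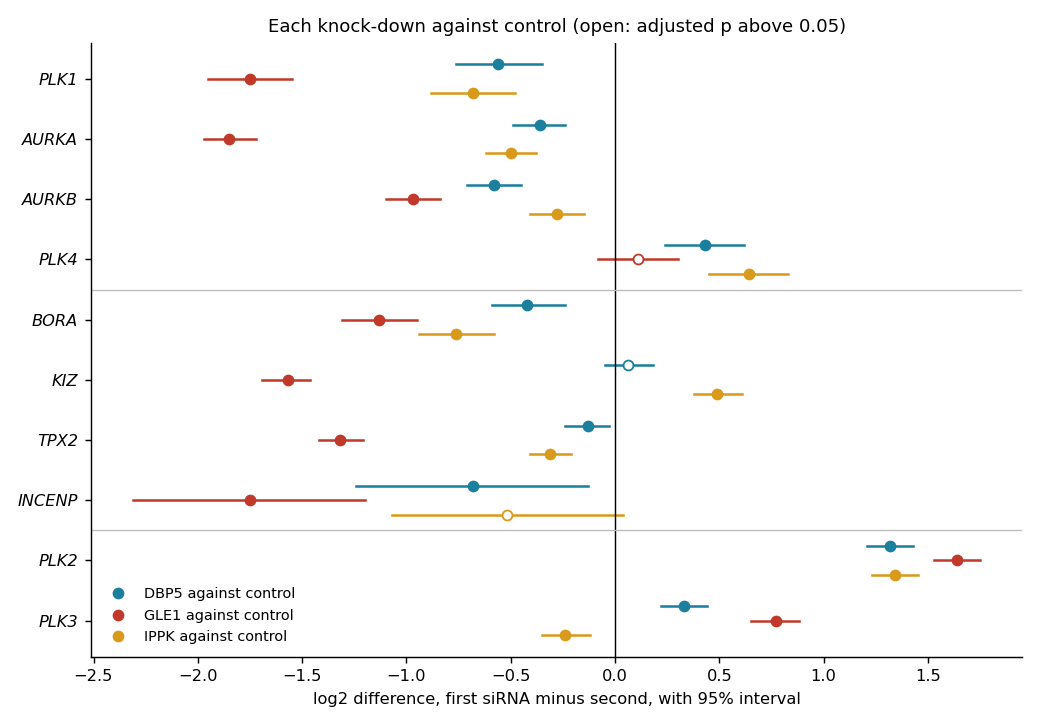
Log2 difference of each gene between a knock-down and control (horizontal axis; points with confidence intervals from limma, filled at an adjusted p of 0.05 or less), with mitotic kinases, partners and stress-induced kinases in 3 blocks from top to bottom. The GLE1 siRNA points of PLK1, AURKA, KIZ, TPX2 and INCENP lie between -1.85 and -1.32, and PLK2 lies between 1.32 and 1.64 in all knock-downs.

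Among the partners of these kinases, BORA, the activator through which AURKA switches on PLK1, lay at 10.83, 10.81 and 10.78 in control. The values were 10.44, 10.34 and 10.39 after DBP5 siRNA, 9.71, 9.69 and 9.63 after GLE1 siRNA and 9.84, 10.11 and 10.19 after IPPK siRNA. All knock-down arrays were below control, and the order of the means was control, DBP5, IPPK and GLE1 siRNA. The log2 difference from control was -1.13 after GLE1, -0.76 after IPPK and -0.42 after DBP5 siRNA, and the call after IPPK siRNA depended on the test used. The step of -0.37 between GLE1 and IPPK siRNA passed the limit (limma adjusted p = 0.00225), with -0.13, -0.42 and -0.56 within slides 1, 2 and 3, but not with normexp background correction (-0.26, limma adjusted p = 0.0989) or the values processed by the authors (-0.28, limma adjusted p = 0.0637), and it also depended on the test used.

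TPX2, the spindle assembly factor that binds and activates AURKA, lay at 13.92, 13.84 and 13.97 in control and at 12.57, 12.6 and 12.61 after GLE1 siRNA. After DBP5 siRNA it was at 13.74, 13.81 and 13.78, and after IPPK siRNA at 13.61, 13.62 and 13.58. The GLE1 siRNA arrays stood clear of the rest, while the DBP5 siRNA arrays came within 0.03 of the lowest control array. The ratio to control was 0.401 after GLE1, 0.806 after IPPK and 0.911 after DBP5 siRNA. The last of these passed with a limma adjusted p of 0.0299, and did not pass without control replicate 1 (0.0805), control replicate 3 (0.107), DBP5 replicate 1 (0.0738) or DBP5 replicate 3 (0.056). The calls of TPX2 after DBP5 and IPPK siRNA also depended on the test used.

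KIZ, or kizuna, a centrosomal substrate of PLK1 that holds the spindle poles together, moved in opposite directions. It lay at 10.93, 10.99 and 10.94 in control and at 11.05, 11.02 and 10.99 after DBP5 siRNA. After GLE1 siRNA it was at 9.45, 9.34 and 9.35, below all other arrays, and after IPPK siRNA at 11.5, 11.47 and 11.37, above all other arrays. The DBP5 siRNA arrays overlapped control, with a log2 difference of 0.06 (interval -0.05 to 0.18, limma adjusted p = 0.329). Against control, KIZ fell by 1.57 on the log2 scale after GLE1 siRNA and was 0.49 higher after IPPK siRNA (limma adjusted p = 2.34e-09 and 1.51e-05). Between IPPK and GLE1 siRNA the level differed 4.18-fold (limma adjusted p = 8.88e-10).

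INCENP, the scaffold that holds AURKB in the chromosomal passenger complex, had the widest spread of the 10 members within control, DBP5 and GLE1 siRNA, but not within IPPK siRNA. It lay at 11.49, 11.68 and 10.9 in control, 10.8, 11.03 and 10.19 after DBP5 siRNA, 9.36, 9.5 and 9.96 after GLE1 siRNA and 10.84, 10.81 and 10.88 after IPPK siRNA. The GLE1 siRNA arrays were below all others, and DBP5 siRNA overlapped control. Its log2 difference from control was -1.75 after GLE1 siRNA (confidence interval -2.31 to -1.2, limma adjusted p = 0.000111), with -2.14, -2.18 and -0.94 within slides 1, 2 and 3. The call after GLE1 siRNA depended on the test used. After DBP5 siRNA the difference was -0.68 (-1.24 to -0.13, limma adjusted p = 0.039), and -0.69, -0.65 and -0.71 within the slides. That call was lost without control replicate 1 (limma adjusted p = 0.108), control replicate 2 (0.141), DBP5 replicate 1 (0.0566) or DBP5 replicate 3 (0.149). After IPPK siRNA the difference of -0.52 did not pass (limma adjusted p = 0.105), and did without control replicate 3 (-0.74, limma adjusted p = 0.0271).

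PLK2, a stress-induced kinase also known from neurons, lay at 12.25, 12.36 and 12.4 in control. It was at 13.63, 13.64 and 13.71 after DBP5 siRNA, 13.98, 14 and 13.95 after GLE1 siRNA and 13.67, 13.69 and 13.67 after IPPK siRNA. All 9 knock-down arrays were more than 1.2 above the highest control array on the log2 scale. PLK2 was 2.5 ± 0.0751, 3.12 ± 0.0509 and 2.54 ± 0.0157 times control after DBP5, GLE1 and IPPK siRNA (SD, n = 3 arrays each; limma adjusted p = 1.29e-08, 1.36e-09 and 8.46e-09). At least 97% of all genes tested had a lower log2 difference than PLK2 in each of these comparisons. DBP5 and IPPK siRNA were not told apart (difference -0.02, interval -0.13 to 0.09), and GLE1 siRNA was above both (limma adjusted p = 0.000243 and 0.000339). The call of GLE1 against DBP5 siRNA depended on the test used.

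PLK3, the other stress-induced kinase, lay at 12.79, 12.82 and 12.85 in control, 13.06, 13.16 and 13.23 after DBP5 siRNA, 13.58, 13.58 and 13.6 after GLE1 siRNA and 12.55, 12.61 and 12.59 after IPPK siRNA. The 4 groups did not overlap, and the IPPK siRNA arrays were the ones below control. PLK3 was 1.26 ± 0.0759 times control after DBP5 siRNA, 1.7 ± 0.0124 after GLE1 siRNA and 0.849 ± 0.0182 after IPPK siRNA (SD, n = 3 arrays; limma adjusted p = 0.000263, 3.06e-07 and 0.00239). The level after GLE1 siRNA was 2-fold that after IPPK siRNA (limma adjusted p = 5.63e-08).

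Side by side, the kinases did not divide cleanly by class. PLK1, AURKA and AURKB were lower than control in each knock-down, PLK1 and AURKA less firmly after DBP5 siRNA, and PLK2 was higher in each. However, PLK4, a mitotic kinase, was higher after IPPK siRNA and, less firmly, after DBP5 siRNA. PLK3, a stress-induced kinase, was lower after IPPK siRNA. These directions held under every scaling and background correction tried. After GLE1 siRNA the 4 mitotic kinases had log2 differences from -1.85 to 0.11 and the 4 partners from -1.75 to -1.13, beside 0.77 and 1.64 for PLK3 and PLK2. After DBP5 siRNA the ranges were -0.58 to 0.43 for the mitotic kinases, -0.68 to 0.06 for the partners and 0.33 to 1.32 for the stress-induced kinases. After IPPK siRNA they were -0.68 to 0.64, -0.76 to 0.49 and -0.24 to 1.34.

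Compared with the other knock-downs, GLE1 siRNA gave 8 lower and 2 higher members against DBP5 siRNA, where 28% of all genes were lower and 26.5% higher. Against IPPK siRNA it gave 8 lower and 2 higher, beside 30.7% and 29.4% of all genes. In both comparisons the higher members were PLK2 and PLK3. For INCENP the log2 difference between GLE1 and DBP5 siRNA was -1.45, -1.53 and -0.23 within slides 1, 2 and 3, so it rested mostly on 2 slides. The calls of INCENP, PLK4 and PLK2 against DBP5 siRNA and of BORA against IPPK siRNA depended on the test used. DBP5 siRNA against IPPK siRNA gave 2 lower (KIZ and AURKB) and 3 higher members (TPX2, PLK3 and BORA), beside 25.1% and 23.8% of all genes, which is not far from that background. Within slides 1, 2 and 3 the difference was -0.25, -0.28 and -0.37 for AURKB, 0.13, 0.19 and 0.21 for TPX2 and 0.6, 0.23 and 0.2 for BORA, and these 3 calls depended on the test used.

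**Figure D3:**
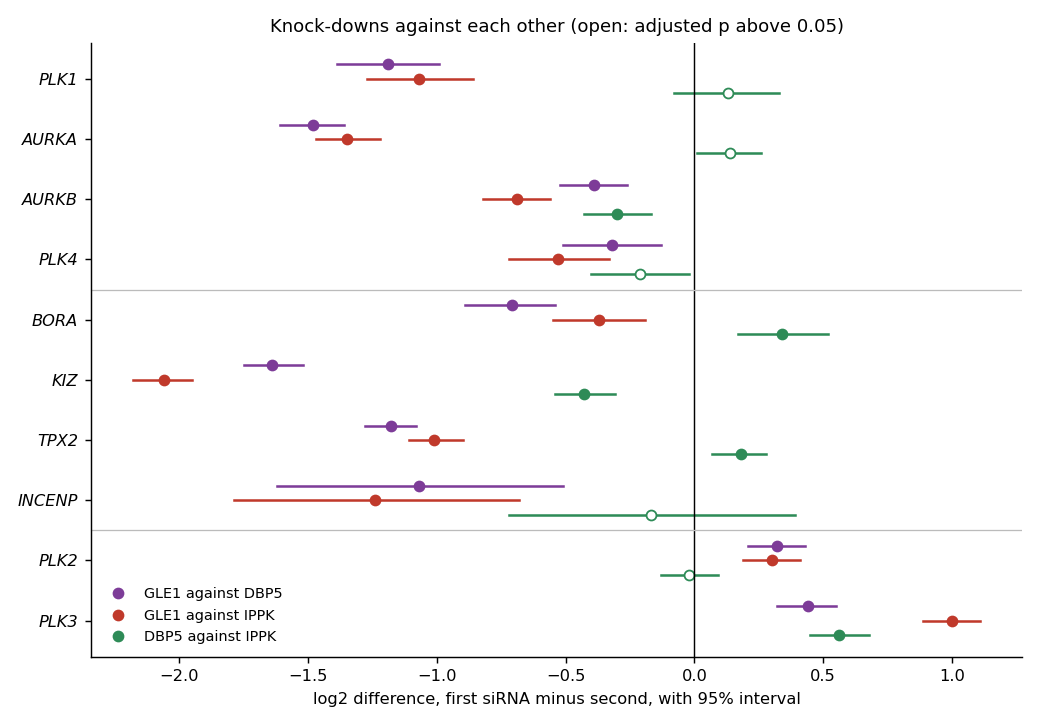
Log2 difference of each gene between knock-downs (horizontal axis, first siRNA minus second; points with confidence intervals from limma, filled at an adjusted p of 0.05 or less). KIZ lies farthest to the left, at -2.06 for GLE1 against IPPK siRNA, and PLK3 farthest to the right, at 1 in the same comparison.

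The genes around these kinases were followed in lists, described by counts of calls and medians. Of 18 regulators, docking partners and substrates of PLK1, 17 were lower and 1 higher after GLE1 siRNA (median log2 difference -1.37), 15 and 1 after DBP5 siRNA (median -0.47) and 14 and 2 after IPPK siRNA (median -0.45). Of all genes tested, 31.5% were lower and 30.6% higher after GLE1, 27.5% and 26.7% after DBP5 and 28% and 27.3% after IPPK siRNA. CDC25A, a phosphatase that activates cyclin-dependent kinases, was at 0.196 ± 0.0185 of control and CDC25C, which PLK1 phosphorylates, at 0.261 ± 0.0142 after GLE1 siRNA (SD, n = 3 arrays). ECT2, the exchange factor that PLK1 recruits for cytokinesis, was at 0.427 ± 0.0414 after DBP5, 0.459 ± 0.0155 after GLE1 and 0.988 ± 0.0491 after IPPK siRNA. After IPPK siRNA GTSE1 was at 0.554 ± 0.0252 and CCNB2, cyclin B2, at 0.58 ± 0.0135 of control. NINL, a centrosomal protein released by PLK1, was the gene of this list that was higher in all knock-downs, at 1.84 ± 0.0725, 1.39 ± 0.0865 and 1.46 ± 0.21 times control after DBP5, GLE1 and IPPK siRNA, and PRC1 was at 1.1 ± 0.0437 after IPPK siRNA.

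Of 12 genes of the chromosomal passenger complex and of Aurora B signalling, 12 were lower after GLE1 siRNA (median -1.23), 8 lower and 1 higher after DBP5 siRNA (median -0.35) and 5 lower and 2 higher after IPPK siRNA (median -0.14). The shares of all genes were 31.5% lower and 30.6% higher, 27.5% and 26.7%, and 28% and 27.3% in this order. The count of lower genes after IPPK siRNA lay not far from its share, and the counts of higher genes were not above theirs. KIF2C, the microtubule depolymerase that AURKB controls, was at 0.296 ± 0.0029 of control after GLE1 siRNA and 0.584 ± 0.0343 after DBP5 siRNA (SD, n = 3 arrays). KIF20A, the kinesin that carries the complex to the midzone, was at 0.308 ± 0.0122 after GLE1 and 0.601 ± 0.035 after IPPK siRNA, and the spindle checkpoint kinase TTK was at 0.629 ± 0.0186 after IPPK siRNA. AURKC, the germ-line Aurora kinase, was at 0.562 ± 0.033 after DBP5 siRNA. BIRC5, or survivin, a subunit of the same complex as INCENP, was 1.11 ± 0.0232 times control after DBP5 siRNA and 1.27 ± 0.0349 times after IPPK siRNA, where SGO2, which protects centromeric cohesion, was at 1.22 ± 0.0354.

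Around AURKA, 5 of 10 activators and substrates were lower and 2 higher after GLE1 siRNA (median -0.55), 4 and 2 after DBP5 siRNA (median -0.12) and 4 and 3 after IPPK siRNA (median -0.04). Of all genes, 31.5% were lower and 30.6% higher after GLE1, 27.5% and 26.7% after DBP5 and 28% and 27.3% after IPPK siRNA, so the counts after DBP5 and IPPK siRNA lay near the background and the higher ones after GLE1 siRNA were not above it. The microtubule protein TACC3, an AURKA substrate, fell in each knock-down, to 0.626 ± 0.0529 of control with DBP5 siRNA, 0.344 ± 0.0127 with GLE1 siRNA and 0.539 ± 0.0205 with IPPK siRNA (SD, n = 3 arrays). HMMR was at 0.215 ± 0.0125 after GLE1 siRNA. AJUBA, a LIM protein that activates AURKA, was at 1.76 ± 0.0503 after GLE1 siRNA and 0.511 ± 0.00879 after IPPK siRNA, and the scaffold NEDD9 at 1.65 ± 0.0218 after GLE1 and 0.575 ± 0.0369 after DBP5 siRNA. TACC1 was at 1.46 ± 0.0803 after DBP5 siRNA, and lower than control at 0.419 ± 0.0132 after GLE1 and 0.869 ± 0.0577 after IPPK siRNA. PPP6C, the phosphatase that switches AURKA off, was at 1.17 ± 0.0878 after DBP5 and 1.31 ± 0.0766 after IPPK siRNA, and FZR1, which directs its degradation, at 1.37 ± 0.00919 after IPPK siRNA.

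PLK4 works with a group of centriole genes, of which 12 of 13 were measured and CENPJ was not among them. After GLE1 siRNA 8 were lower and 3 higher (median -0.43), after DBP5 siRNA 5 and 4 (median -0.06) and after IPPK siRNA 3 and 1 (median 0.04). After GLE1 siRNA the share of all genes was 31.5% lower and 30.6% higher, so the higher count was not above it. The counts after DBP5 siRNA were near the share of all genes (27.5% and 26.7%), and those after IPPK siRNA were not above it (28% and 27.3%). STIL, the PLK4 substrate that builds the cartwheel with SASS6, fell in every knock-down. It was at 0.607 ± 0.132 of control with DBP5, 0.547 ± 0.0488 with GLE1 and 0.721 ± 0.0784 with IPPK siRNA (SD, n = 3 arrays). SASS6 was at 0.7 ± 0.0678 with DBP5 and 0.715 ± 0.0691 with GLE1 siRNA, and at 1.1 ± 0.203, not called, with IPPK siRNA. PLK4 itself rose with IPPK siRNA and was not called with GLE1 siRNA. The call of its rise with DBP5 siRNA depended on the test used. CEP250, a linker between centrosomes, was at 1.43 ± 0.186 after DBP5 siRNA and 0.423 ± 0.011 after GLE1 siRNA, and CETN3, a centrin, at 0.459 ± 0.00847 after GLE1 siRNA. CEP63, which helps to place PLK4 at the centriole, was at 1.7 ± 0.0364 after GLE1 siRNA. FBXW5, a ubiquitin ligase subunit that acts on SASS6, was at 1.42 ± 0.299 after DBP5 and 1.36 ± 0.0146 after GLE1 siRNA. After IPPK siRNA the centriole cap protein CCP110 was at 0.634 ± 0.069 and the scaffold PCNT at 1.13 ± 0.0696.

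Beside PLK2 and PLK3, 15 of 16 stress and immediate-early genes were measured, PLK5 not being among them. After GLE1 siRNA 10 were higher and 4 lower (median 0.95), after DBP5 siRNA 8 and 4 (median 0.34) and after IPPK siRNA 9 and 5 (median 0.42). The shares of all genes were 30.6% higher and 31.5% lower, 26.7% and 27.5%, and 27.3% and 28% in this order, so the counts of lower genes lay near the background. BTG2, an antiproliferative gene, was 4.19 ± 0.343 times and CDKN1A, the inhibitor p21, 4.14 ± 0.43 times control after GLE1 siRNA (SD, n = 3 arrays). SESN1 was 2.65 ± 0.0809 times and TP53INP1 2.12 ± 0.161 times control after DBP5 siRNA, and BTG2 was 2.87 ± 0.214 times and JUN 2.38 ± 0.107 times control after IPPK siRNA. Among the lower genes, IER3 fell to 0.425 ± 0.0361, 0.698 ± 0.033 and 0.459 ± 0.0218 after DBP5, GLE1 and IPPK siRNA. FOS fell to 0.657 ± 0.0602, 0.487 ± 0.00562 and 0.612 ± 0.026 in the same order, so both were lower in every knock-down. EGR1 fell to 0.414 ± 0.0345 after GLE1 siRNA. PPM1D fell to 0.601 ± 0.0233 after IPPK siRNA and was higher than control after DBP5 and GLE1 siRNA, at 1.27 ± 0.0699 and 1.44 ± 0.0834.

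**Figure D4:**
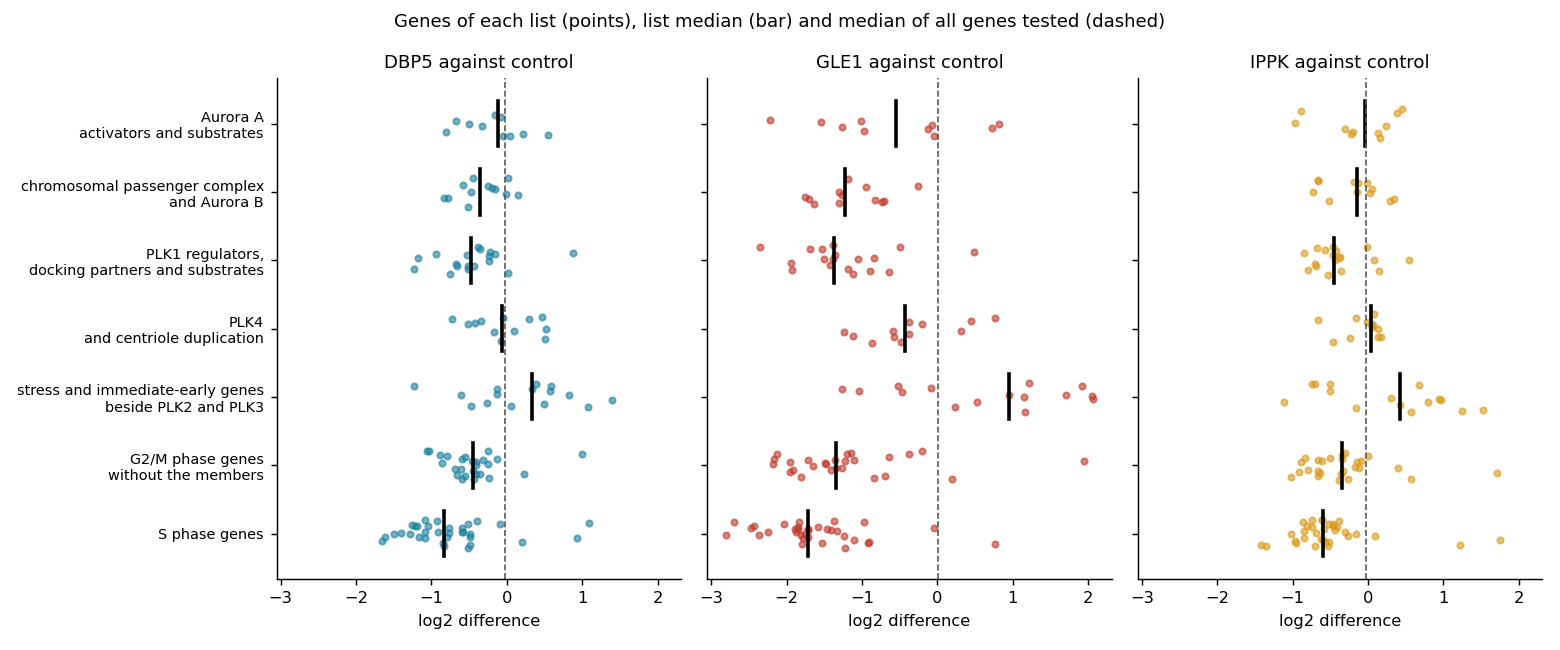
Log2 difference from control (horizontal axis) of each gene of 7 lists (points), by knock-down, with the list median as a black bar and the median of all genes tested as a dashed line. After GLE1 siRNA the S phase list has the lowest median, -1.72. The 3 lists around PLK1, Aurora B and G2/M phase have medians between -1.37 and -1.23, and the stress list has one of 0.95.

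Cell cycle genes outside the 10 members were set beside them. Of 26 other G2/M phase genes, 23 were lower and 1 higher after GLE1 siRNA (median -1.35), 22 and 1 after DBP5 siRNA (median -0.45) and 19 and 2 after IPPK siRNA (median -0.35). CENPF and CENPA, both of the kinetochore, were at 0.22 ± 0.00739 and 0.222 ± 0.0249 of control after GLE1 siRNA, NUSAP1 and CENPN at 0.478 ± 0.0292 and 0.491 ± 0.0249 after DBP5 siRNA, and PIMREG and PSRC1 at 0.492 ± 0.0221 and 0.528 ± 0.00241 after IPPK siRNA (SD, n = 3 arrays). Of 33 S phase genes, 31 were lower and 1 higher after GLE1 siRNA (median -1.72), 29 and 3 after DBP5 siRNA (median -0.83) and 29 and 2 after IPPK siRNA (median -0.6). Beside both lists, 31.5% of all genes were lower and 30.6% higher after GLE1, 27.5% and 26.7% after DBP5 and 28% and 27.3% after IPPK siRNA. MCM6 and CCNE2 were at 0.143 ± 0.0388 and 0.154 ± 0.00301 of control after GLE1 siRNA, E2F8 and RAD51AP1 at 0.316 ± 0.0397 and 0.325 ± 0.039 after DBP5 siRNA, and E2F8 and UNG at 0.373 ± 0.00881 and 0.391 ± 0.0202 after IPPK siRNA. The mean log2 intensity of the 26 G2/M genes was 13.14, 13.18 and 13.15 in control, 12.71, 12.69 and 12.71 after DBP5 siRNA, 11.94, 11.99 and 11.95 after GLE1 siRNA and 12.83, 12.83 and 12.84 after IPPK siRNA. The part of the cell cycle in the levels of the members was not tested.

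Since the RNA came from the cytoplasm, RNAs known to stay in the nucleus were set beside the members. KCNQ1OT1 was 1.56 ± 0.142 times, 1.8 ± 0.0234 times and 1.16 ± 0.065 times control after DBP5, GLE1 and IPPK siRNA (SD, n = 3 arrays; limma adjusted p = 2.2e-05, 1.78e-06 and 0.0212). MEG3 was 1.24 ± 0.0464 times control after GLE1 siRNA, and MALAT1 fell to 0.474 ± 0.144 of control after IPPK siRNA. Of the 3 measured RNAs of this list, 1 was higher and none lower after DBP5 siRNA (median -0.08), 2 were higher and none lower after GLE1 siRNA (median 0.31), and 1 was higher and 1 lower after IPPK siRNA (median 0.05). Since 26.7%, 30.6% and 27.3% of all genes were higher in these knock-downs, counts out of 3 say little. Whether nuclear RNA in the fraction had a part in the members' values was not tested.

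For each member, the genes with the most similar course over the 12 arrays were sought among the 15735 genes that were well above background throughout and called in at least 1 comparison. The 12 arrays fall into 4 groups of 3, so Pearson's r mostly reflects 4 group means and is a description. PLK1 was followed most closely by C2CD4C, DCLRE1B and ASF1B (r = 0.9959, 0.994 and 0.9938), AURKA by NSMCE4A, SLC25A40 and FANCA (r = 0.9956, 0.9954 and 0.9948) and AURKB by ORC6, FANCG and EXO1 (r = 0.9939, 0.9926 and 0.9923). PLK4 was nearest to BCAR3, EFCAB7 and LINC01545 (r = 0.9703, 0.9662 and 0.9658). Among the partners, TPX2 was nearest to RHNO1, TMEM106C and RPS6KC1 (r = 0.9964, 0.9956 and 0.9951), KIZ to HOXB2, ITGB4 and STX18 (r = 0.9961, 0.9954 and 0.9947), BORA to GTF3C4, CNTRL and H2AX (r = 0.9858, 0.9836 and 0.9821) and INCENP to a transcript without a gene symbol, SPCS1 and KIFC1 (r = 0.9589, 0.9571 and 0.9558). The course of PLK2 was closest to PTPRU, G3BP2 and ADA (r = 0.9975, 0.9975 and 0.9958) and that of PLK3 to TRIM29, MFGE8 and RFPL4AL1 (r = 0.9979, 0.9934 and 0.9905).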

How the data were processed

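The 12 one-colour Agilent arrays carried cytoplasmic RNA of U2OS cells, 3 arrays per siRNA, with groups and replicate numbers from the sample labels. The authors deposited, for each array, the Feature Extraction output (version 10.7.3.1), whose linear spot intensity has the local background already subtracted. Processed log2 values, also deposited by the authors, had been normalized by LOESS in R according to the methods. Across probes these values had a Pearson's r of 0.99982 to 0.99999 with log2 median spot signal before background subtraction and of 0.9612 to 0.9665 with log2 intensity after it, their medians per array lay between 7.746 and 7.759, and how they were centred is not stated.

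Here, log2 of the background-subtracted intensity was normalized by cyclic loess between arrays. Control spots and 169 to 358 outlier spots of 43118 per array were left out, spots of a probe were averaged, and no spot was saturated. Accessions were named through RefSeq (GRCh38.p14; the array design names hg19, so used only for names and its own promoter table), which matched 26449 of 34127 probes (77.5%), and other probes kept the design's name. The probe with the highest mean stood for each of 27522 gene names, and genes were kept if some siRNA had it well above background on its 3 arrays, in all 20821 genes, with 18420 above it on every array. Between 70.9% and 77.7% of probes per array were well above background, and the number of arrays limits the precision.

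Groups were compared with limma 3.58.1 (R 4.3.3; two-sided, 1 mean per siRNA over all 12 arrays) with Benjamini-Hochberg adjustment over all genes at 0.05, and confidence intervals are those that leave out 0 at an unadjusted p of 0.05. Ratios are differences of log2 means turned back, with the SD over the 3 arrays, each divided by the mean of control. The fit was also run on simulated arrays with known changes in 200 of 22884 probes, of which it called 182, with 10 false calls. Noise in that simulation was independent between arrays, so it does not cover the deviation shared by slide that is given next. The replicate number marks the slide, and arrays of the same number deviated together from their group means (r from 0.315 to 0.545 over 18 pairs, against -0.333 to -0.0163 over 36 other pairs), so the numbers pair the arrays and a fit with the number as a block was run. Results were also recomputed with quantile normalization, 75th percentile scaling, normexp (offset 50) on the median spot signal, since the mean signal was not in the tables used here, the authors' values, a looser filter (none) or a stricter one (all 12 arrays), averaged probes per gene, each probe alone, fits on the 6 arrays of a comparison, fits without any 1 array, the methods' t-test paired by replicate, and Dunnett's test (multcomp 1.4.28). The paired t-test and Dunnett's test are those of the general statistics section of the methods. For array genes the methods name rank product lists and a fold limit, which were not recomputed here. Plots came from Python 3.11.15 with matplotlib 3.10.9.

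The members and gene lists were chosen with earlier results of these data known. Named are all members and siRNA targets, per list and knock-down the 2 largest falls and 2 largest rises among called genes well above background on all 12 arrays, and per member the 3 genes with the highest r. 1 marker of another lineage that had been planned is not reported here.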

Additional observations from a re-analysis of the deposited data

Results flagged for a closer look

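2 members were called in opposite directions against control in different knock-downs, and the difference between those knock-downs also passed limma over all genes. PLK3 was higher than control after DBP5 and GLE1 siRNA and lower after IPPK siRNA, with a log2 difference of 1.00 between GLE1 and IPPK siRNA (limma adjusted p = 5.63e-08) and of 0.56 between DBP5 and IPPK siRNA (limma adjusted p = 7.5e-06). KIZ was lower than control after GLE1 siRNA and higher after IPPK siRNA, with a log2 difference of -2.06 between them (limma adjusted p = 8.88e-10). In each of the 3 comparisons the arrays of the 2 siRNAs did not overlap, and the difference had the same sign on all 3 slides. Members picked by opposite calls against the same control arrays are nearly bound to differ in this way, so these values are no further support. How many of all genes had such opposite calls was not counted. Groups of 3 arrays were not tested for single arrays that stand apart.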

How the results depend on the processing

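Of the recomputed counts of called members, 100 stayed within 1.5 times the reported one and 2 did not. These 2 came from the t-test of the general statistics in the methods, paired by replicate number, with Benjamini-Hochberg adjustment. It called 5 members after DBP5 siRNA against control, in place of 9, and 2 between DBP5 and IPPK siRNA, in place of 5. Over all genes that test called 2603 lower and 2443 higher genes in the first comparison, against 5733 and 5569 by limma. It also called 3689 lower and 3943 higher after IPPK siRNA against control, 2791 and 2518 for GLE1 against DBP5 siRNA, and 2072 and 1877 for DBP5 against IPPK siRNA. The t-test takes its spread from 3 pairs for each gene alone. After DBP5 siRNA it did not call the falls of PLK1 and TPX2 or the rise of PLK4, with or without adjustment, nor, with adjustment, the fall of AURKA. With adjustment it also did not call INCENP after GLE1 siRNA, or TPX2 and BORA after IPPK siRNA, against control. Between GLE1 and DBP5 siRNA it called 7 of 10 members, without INCENP, PLK4 and PLK2, and between GLE1 and IPPK siRNA it left out BORA. Between DBP5 and IPPK siRNA it did not call AURKB, TPX2 or BORA. INCENP and BORA in these comparisons between knock-downs were not called without adjustment either. With the replicate number as a block, the counts of called members were 9, 9 and 9 against control and 10, 10 and 5 between knock-downs, and the block changed no member's call. Of all 20821 genes this fit called 6147 lower and 5854 higher after DBP5, 6882 and 6797 after GLE1 and 6336 and 6071 after IPPK siRNA. It called 6161 and 6071 for GLE1 against DBP5, 6741 and 6650 for GLE1 against IPPK and 5660 and 5383 for DBP5 against IPPK siRNA. The 5 members in the last comparison lay near that background.

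Among recomputed member differences, 1016 kept their side of the threshold, 34 lost the call, 6 gained it, and no called difference changed direction. INCENP and TPX2 after DBP5 siRNA lost the call 7 times each, and over all recomputed fits their log2 differences ran from -0.91 to -0.44 and from -0.17 to -0.11. For INCENP these included Dunnett's test and the fit without a filter (limma adjusted p = 0.0587), and for both genes the fit on the 6 arrays alone (limma adjusted p = 0.0822 and 0.128). The cause was not tested. Leaving out single arrays moved the PLK1 difference between DBP5 and IPPK siRNA past the threshold once, without DBP5 replicate 1 (0.22, limma adjusted p = 0.0455), and that of PLK4 likewise (-0.31, limma adjusted p = 0.00348). The same PLK4 difference also passed with 75th percentile scaling (-0.23, limma adjusted p = 0.0473). When a group is left with 2 arrays, its spread is assumed to be like that of the other groups. Signal over background limits the dimmest values, but all 11 member probes were well above it on every array.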

Other observations

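A few cell cycle genes went against their lists. LBR, the lamin B receptor of the inner nuclear membrane, was 1.99 ± 0.205 times, 3.83 ± 0.0506 times and 3.27 ± 0.0858 times control after DBP5, GLE1 and IPPK siRNA (SD, n = 3 arrays), while most other G2/M phase genes were lower. GMNN, or geminin, the inhibitor of replication licensing, was 1.9 ± 0.135 times, 1.71 ± 0.0277 times and 3.36 ± 0.0836 times control in the same order, among S phase genes that mostly fell. CDC6, a licensing factor, was 2.13 ± 0.133 times control after DBP5 siRNA and 2.33 ± 0.126 times after IPPK siRNA, and at 0.967 ± 0.17 after GLE1 siRNA. TMPO, a nuclear envelope protein, was 1.49 ± 0.0376 times control after IPPK siRNA. Each of the rises passed limma over all genes at an adjusted p of 0.05.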
